A study of Hypsibius exemplaris with 24 samples.

Results

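The transcripts described here had their highest sampled level 12 h after bleomycin exposure in the tardigrade *Hypsibius exemplaris*. They were chosen by their own measured levels: the mean log2(scaled TPM + 1) at 12 h had to be at least 1 above that of each of the 7 other groups, and the mean at 0 h had to be less than 1 above the control. TPM is a length-corrected relative abundance that sums to the same fixed total in every library, and scaled TPM is that value divided by a scale factor computed for each library. Of 20853 transcripts in the deposited table, 12916 reached 5 TPM in at least 3 libraries and were kept, and 165 of these (1.28%), from 164 loci, met the rule. In unscaled TPM the same rule chose 24 transcripts, of which 23 were among the 165.

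Bleomycin is a drug that cuts DNA strands, and cells that meet such damage usually raise transcripts for damage signalling and repair, then return to their normal programme as breaks are closed. Tardigrades are minute animals known for tolerating desiccation and doses of DNA damage that most animals do not survive. *H. exemplaris* is a freshwater species kept in culture on algae. A time course after exposure separates transcripts that respond at once from those that change late, and the transcripts below were chosen for a late maximum, which does not bar a change before it.

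RNA came from 24 pools of 50 whole animals, 3 pools in each of 8 groups, which the submitters call biological replicates. Control pools spent 24 h in mineral water, and all other pools spent 24 h in the same water with 100 µM bleomycin. The control and the 0 h pools were frozen when the exposure ended. The 1, 3, 6, 9, 12 and 24 h pools were first washed, placed on agar with the alga *Chlorella* to eat, and frozen at those times. No unexposed pool was taken through the wash, so in a contrast of 9 h or 24 h with the control the washing, agar, feeding and elapsed time cannot be told apart from the drug. In whole animals, a change in the number of cells of a type cannot be told apart from a change in RNA per cell.

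The table does not pair its identifiers with gene names, and no annotation was used here, so no function or sequence is given for any of the 165, and single transcripts are named by identifier only. TPM keeps no sequencing depth, so the depth behind each value is unknown. Between libraries of a group, Pearson correlations across the kept transcripts (which do not count as replicates) were 0.859 to 0.947 in the control, 0.917 to 0.928 at 12 h and 0.911 to 0.962 at 24 h. Scale factors ran from 0.664 to 1.18. Those at 12 h were the lowest on average, at 0.796 ± 0.114 (SD, n = 3), with 0.868, 0.855 and 0.664 in replicates 1, 2 and 3. A low factor means that a typical transcript held fewer TPM in that library. The 100 most abundant transcripts took 30.5% of all TPM at 12 h and 22.8% in the control.

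Individual libraries stood apart in these transcripts, and several results rest on them. At 12 h, replicate 3 was the highest library for 157 of the 165 (95.2%), against 42.8% of all kept transcripts, and lay a median of 0.88 above the mean of replicates 1 and 2 on the log2 scale. At 24 h, replicate 2 was the lowest library for 150 (90.9%), against 38.6% of all kept transcripts, and lay 1.23 below the mean of replicates 1 and 3. At 3 h, replicate 1 was the highest for 123 (74.5%), against 37.4%. The rule worked on group means, which 12 h replicate 3 raised and 24 h replicate 2 lowered, so both of these libraries helped to choose the 165, whereas a high 3 h library made the rule harder to meet.

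The pools of a group thus differed in these transcripts in a shared direction. In unscaled TPM, where no factor had been applied, the differences kept their sign: 0.51 for 12 h replicate 3, -0.96 for 24 h replicate 2 and 0.36 for 3 h replicate 1, while the kept transcripts as a whole had medians of -0.24, 0.35 and -0.19. In 7 of the 8 groups the library with the lowest scale factor was also the one with the highest median deviation of these transcripts from their group means, in scaled and in unscaled TPM, and the control was the exception. The plot of each library's deviation against its scale factor shows this pattern. Whether the factor, the pools of animals or another property of the libraries carries it was not tested.

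**Figure D1:**
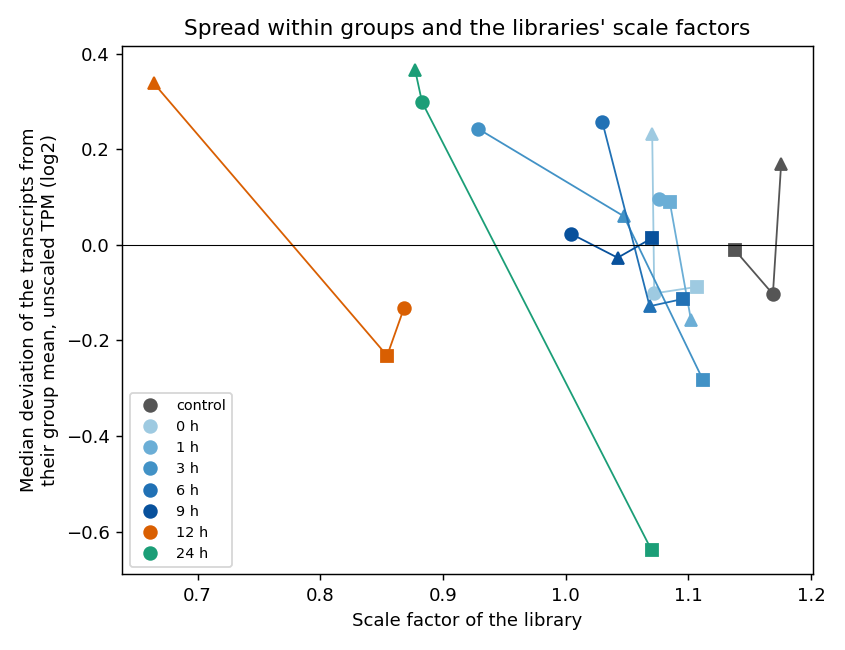
Median deviation of the 165 transcripts from their group mean in unscaled log2(TPM + 1), on the y axis, against the library's scale factor, on the x axis, with 1 point per library. The points for 12 h replicate 3 (scale factor 0.664, deviation 0.34) and 24 h replicate 2 (1.07 and -0.64) lie farthest from 0 for their groups.

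As a share of all TPM, without any scaling, the 165 transcripts together took 1.40% ± 0.0802 (SD, n = 3) in the control. Their share at 0, 1, 3, 6 and 9 h was 1.71% ± 0.233, 1.83% ± 0.157, 2.04% ± 0.373, 2.10% ± 0.277 and 2.28% ± 0.102. It was 4.26% ± 0.932 at 12 h, and the 24 h share was 2.16% ± 0.744. All 3 libraries at 12 h, with 3.71%, 3.72% and 5.33%, lay above every other library. The 24 h libraries held 2.59%, 1.30% and 2.60%, so replicate 2 was just below the controls, which held 1.32%, 1.40% and 1.48%. Since the transcripts were chosen for this pattern, these shares describe them and are not tested.

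Seen transcript by transcript, the median of the group means was 18.1 scaled TPM in the control and 23.1, 25.1, 28.2, 34.0 and 37.7 scaled TPM at 0, 1, 3, 6 and 9 h. It then stood at 99.7 scaled TPM at 12 h and at 40.7 scaled TPM at 24 h. The same median over all kept transcripts stayed between 18.6 and 21.9 scaled TPM in every group. The 12 h means of the 165 ranged from 8.65 to 6999.7 scaled TPM, with 82 of them at 100 or more and 2 below 10. The rule had no upper or lower bound on level beyond its filter, and it therefore took in rare and very abundant transcripts alike. The plot of the library medians shows the step at 12 h, the spread among its 3 libraries and the low 24 h replicate 2.

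**Figure D2:**
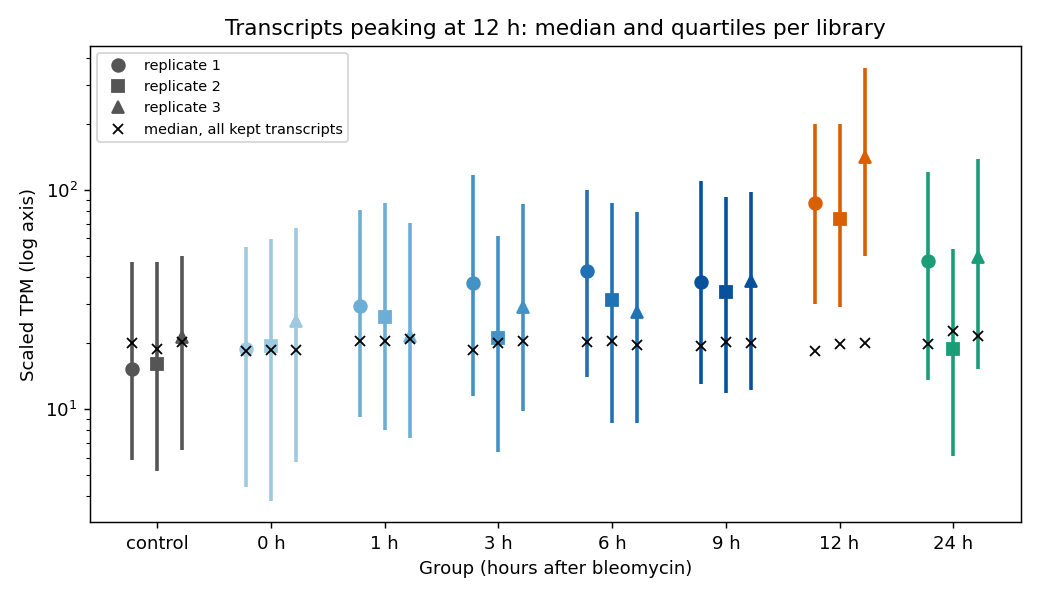
Median scaled TPM of the 165 transcripts in each of the 24 libraries (points, log axis) with their lower and upper quartiles (bars), by group, and the median of all kept transcripts (crosses). The 12 h libraries have medians of 86.7, 73.2 and 141 scaled TPM, and the highest other library, 24 h replicate 3, has 49.6.

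The margin, the distance of the 12 h mean from the next highest group mean, had a median of 1.15 on the log2 scale, with quartiles of 1.06 and 1.28 and a maximum of 1.74. It was under 1.2 for 98 of the 165, so most of them lay close to the limit of the rule. The median distance of 12 h from the control was 2.203, and from the 0, 1, 3, 6, 9 and 24 h means it was 1.93, 1.73, 1.62, 1.498, 1.36 and 1.33. Libraries of the groups did not overlap for 134 of the 165 (81.2%): all 3 libraries at 12 h were above all 21 others. Among all kept transcripts that held for 4.72%, and since the rule used the same values, nothing is read from the contrast.

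In unscaled TPM, the median difference of 12 h from the control over all kept transcripts was -0.47 on the log2 scale, and it was -0.36 from 9 h and -0.26 from 24 h. Leaving out the scaling moved a transcript's difference of 12 h from these groups by medians of -0.52, -0.37 and -0.24. The 165 kept their highest mean at 12 h in unscaled TPM, but with smaller margins, from 0.55 to 1.38 with a median of 0.81. These median shifts were smaller than the scaled margin of 1 that the rule required. That all 165 stayed highest at 12 h is therefore no separate check. For 112 of them all 3 libraries at 12 h were still above all 21 others, against 2.11% of all kept transcripts. The share of kept transcripts whose highest mean was at 12 h was 22.7% in scaled and 12.7% in unscaled TPM. The scatter of both margins shows that the 23 transcripts with an unscaled margin of at least 1 all had a scaled margin of at least 1.29, and that not every transcript above that value kept it.

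**Figure D3:**
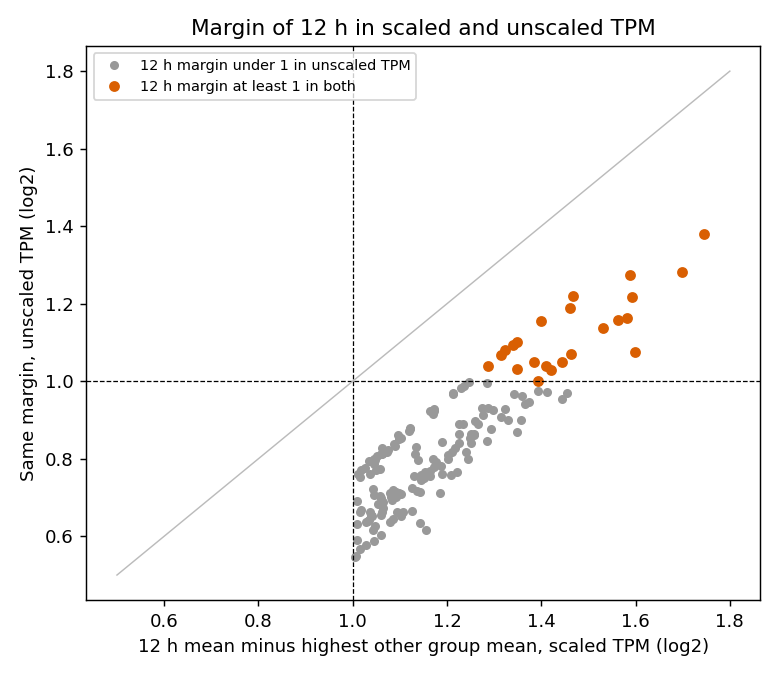
Margin of the 12 h mean over the next highest group mean for each of the 165 transcripts, in scaled TPM on the x axis and in unscaled TPM on the y axis, both on the log2 scale. The 23 that met the rule in both are in orange. All 165 lie above 0 on both axes, which the rule's scaled margin largely sets.

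The 23 transcripts that met the rule in both scalings had 12 h means from 15.6 to 609 scaled TPM, with a median of 82.1. For 18 of them all 3 libraries at 12 h were above all 21 others in unscaled TPM, against 2.11% of all kept transcripts. The rule used the same values, so nothing is read from that contrast. The single transcript chosen in unscaled TPM alone, BV898_12613.t01, had a scaled margin of 1.47 and missed the rule because its 0 h mean was 1.05 above the control. In all, 18 kept transcripts met the margin and missed the condition at 0 h. BV898_12613.t01, picked out after its values were seen, held 51.9, 50.3 and 57.3 scaled TPM in the control, 88.2, 96.3 and 163 in the 0 h libraries and 325, 270.1 and 505 in the 12 h libraries.

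The largest margin in both scalings belonged to BV898_11448.t01, at 1.74 scaled and 1.38 unscaled. Its 12 h libraries held 24.7, 19.8 and 15.1 scaled TPM, and here replicate 3 was the lowest of the group. The control libraries held 2.72, 2.75 and 6.76, the 9 h libraries 6.78, 5.08 and 3.81 and the 24 h libraries 10.7, 1.62 and 3.47. It was thus low at all times but 12 h, with no overlap between 12 h and any other group. Neither 9 h nor 24 h was called different from the control in limma (log2 fold change 0.36 with an SE of 0.71 and 0.11 with an SE of 0.71, adjusted p = 0.762 and 0.916).

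BV898_18740.t01 had the second largest margin, 1.70 scaled and 1.28 unscaled, and stood at 3 levels over time. Control libraries held 0.530, 2.73 and 0.400 scaled TPM and the 0 h libraries 2.61, 2.10 and a value listed at 0. From 1 h to 9 h its 12 libraries lay between 9.44 and 22.0 scaled TPM, and the 12 h libraries held 60.7, 35.1 and 65.2. At 24 h it held 13.3, 6.09 and 15.2, within or below its range from 1 h to 9 h. Both the 9 h and the 24 h libraries lay above all control libraries, and limma called both differences (log2 fold change 2.89 and 2.56, SE 0.46 for both, adjusted p = 1.34e-04 and 1.18e-04).

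The most abundant of the 165 at 12 h were BV898_08342.t01 and BV898_06781.t01. BV898_08342.t01 held 2004, 2074 and 1935 scaled TPM in the control and 3652, 2883 and 3007 after 9 h, then 5685, 5955 and 9359 after 12 h and 3695, 1806 and 3209 after 24 h. BV898_06781.t01 held 1148, 1272 and 1175 scaled TPM in the control and 2225, 1895 and 2103 after 9 h, then 4005, 3938 and 7863 after 12 h and 3323, 1309 and 3258 after 24 h. Both carried the library pattern of the whole set, with 12 h replicate 3 far above its group and 24 h replicate 2 near the control. Neither met the rule in unscaled TPM. In limma, BV898_08342.t01 was higher at 9 h than in the control (log2 fold change 0.66, SE 0.23, adjusted p = 0.0449), and was not called at 24 h (0.47, SE 0.23, adjusted p = 0.106). BV898_06781.t01 was higher at 24 h (1.01, SE 0.29, adjusted p = 0.00666) and was not called at 9 h (0.79, SE 0.29, adjusted p = 0.052).

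Of the members that did not meet the rule in unscaled TPM, BV898_00045.t01 and BV898_17860.t01 had the largest scaled margins, at 1.45 and 1.44. Neither reached 5 TPM in at least 3 libraries outside 12 h, so both passed the filter only with their 12 h libraries counted. Their being kept thus depended in part on the 12 h values that the rule also used. BV898_00045.t01 held 11.1, 9.82 and 18.9 scaled TPM at 12 h and between 1.13 and 7.17 in all other libraries. BV898_17860.t01 held 12.9, 5.64 and 30.2 scaled TPM at 12 h and between 1.32 and 5.31 in all other libraries. The 12 h spread of the second was the wider, and its mean rests mainly on replicate 3.

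The smallest margins inside belonged to BV898_05373.t01 and BV898_03252.t01, at 1.00 and 1.01 on the log2 scale, and the largest outside to BV898_16617.t01 and BV898_12558.t02, at 0.9995 and 0.997. BV898_05373.t01 held 155, 156 and 241 scaled TPM at 12 h and, at its next highest time of 1 h, 80.0, 109 and 81.6. BV898_16617.t01 held 74.4, 33.4 and 129 scaled TPM at 12 h and 47.1, 14.7 and 55.2 at 24 h, so that its groups overlapped.

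To read the pattern in libraries that did not choose the transcripts, the rule was applied to the 16 libraries of 2 replicate numbers and the result read in the 8 libraries of the third, 1 from each group. Choosing without replicate 1 gave 372 transcripts, of which 279 (75%) were highest at 12 h among the 8 left-out libraries, against 16.7% of all kept transcripts. Without replicate 2 it gave 122, of which 106 (86.9%) were highest at 12 h, against 23.0%. Without replicate 3 it gave 59, of which 56 (94.9%) were highest at 12 h, against 24.4%.

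The highest level at 12 h was thus mostly met again in the left-out libraries, while the size of the margin was met less often. The 3 h and 24 h libraries of a replicate number deviated together (correlations of 0.126 to 0.476 across transcripts), so the 8 left-out libraries were not wholly separate readings. A left-out margin of at least 1 was found for 14 of 372 (3.76%), 27 of 122 (22.1%) and 37 of 59 (62.7%). The last of these shares is read in 12 h replicate 3 and 24 h replicate 3, and the first in 12 h replicate 1 and 24 h replicate 1. The median left-out difference of 12 h from 9 h was 0.83, 0.93 and 1.89, and that of 12 h from 24 h was 0.35, 1.82 and 1.35, with the largest in the set that held 24 h replicate 2. In unscaled TPM, 51 of 66 (77.3%), 23 of 28 (82.1%) and 7 of 10 (70.0%) were highest at 12 h, against 11.5%, 12.6% and 12.4% of all kept transcripts.

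The number of members depended on the same libraries. Without 12 h replicate 3 the rule chose 53 transcripts, 47 of them among the 165. Without 12 h replicate 1 or 2 it chose 313 or 342, and without 24 h replicate 2 it chose 72. With 12 h replicate 3 and 24 h replicate 2 both left out, an alternative chosen after seeing the data, it chose 27, of which 24 were among the 165. In 12 h replicate 3 alone, 162 of the 165 were at least 1 above every other group mean, and in replicates 1 and 2 it was 60 and 42.

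The rule did not set whether these transcripts were higher or lower at 9 h or 24 h than in the control. At 24 h, 74 of the 165 (44.8%) were higher than in the control by limma at an adjusted p under 0.05, against 25.2% of all 16490 transcripts tested. None were lower (0, against 22.0% of all transcripts). At an unadjusted p under 0.05, 2 were lower, against 4117 of all 16490 transcripts, and the other fits gave 0 to 3. The median log2 fold change was 0.81 over the 165 and 0.04 over all transcripts. A positive value was found for 142 of the 165 (86.1%), against 51.6% of all transcripts. The rule also used the values behind this contrast, as limits: the control, 9 h and 24 h means each had to lie at least 1 below the 12 h mean, and the 0 h mean less than 1 above the control. It set no order between 24 h, 9 h and the control. Without 24 h replicate 2, 106 of the 165 were called higher at 24 h. In unscaled TPM, where all fold changes moved by a median of -0.28, 63 were higher and 3 lower, and with quality weights per library 126 were higher and 2 lower. For these alternative fits the share over all transcripts was not computed, so their counts only describe the 165.

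At 9 h, 69 of the 165 (41.8%) were higher than in the control, against 13.1% of all transcripts. None were lower (0 by limma, against 11.5% of all transcripts). At an unadjusted p under 0.05, 0 were lower, against 2961 of all 16490 transcripts, and the other fits gave 0 or 1. The median log2 fold change was 0.89 against -0.01 over all transcripts. A positive value was found for 146 of the 165 (88.5%), against 48.9% of all transcripts. Without control replicate 1 the count of higher calls was 42, and in unscaled TPM, where all fold changes moved by a median of -0.15, it was 70. With quality weights per library it was 115, and for these alternative fits the share over all transcripts was not computed. The calls at 9 h and those at 24 h share their control libraries, so no overlap between them is given. Among the 23 transcripts that met the rule in both scalings, 10 were called higher at 9 h and 10 at 24 h. Of all transcripts 13.1% and 25.2% were so called, and of the 165 it was 41.8% and 44.8%.

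The 69 transcripts called higher at 9 h and the 96 not called were also described apart. Medians of the 69, as log2 difference from the control, were 0.47, 0.86, 1.225, 1.10 and 1.40 at 0, 1, 3, 6 and 9 h, then 2.79 and 1.47 at 12 and 24 h. Those of the 96 were 0.01, 0.22, 0.19, 0.30 and 0.48 at the same early times, then 1.87 and 0.53 at 12 and 24 h. The split was made on 9 h against the control, and all these differences share that control, so the medians only describe it. The heat map orders its rows by 9 h minus control and not by the call, so called and uncalled transcripts mix along it. BV898_08342.t01 was called at a log2 fold change of 0.66, while BV898_17738.t01, at 1.06, was not. The upper rows turn from blue to pale between 0 h and 9 h, and the lower rows are red mainly at 12 h.

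**Figure D4:**
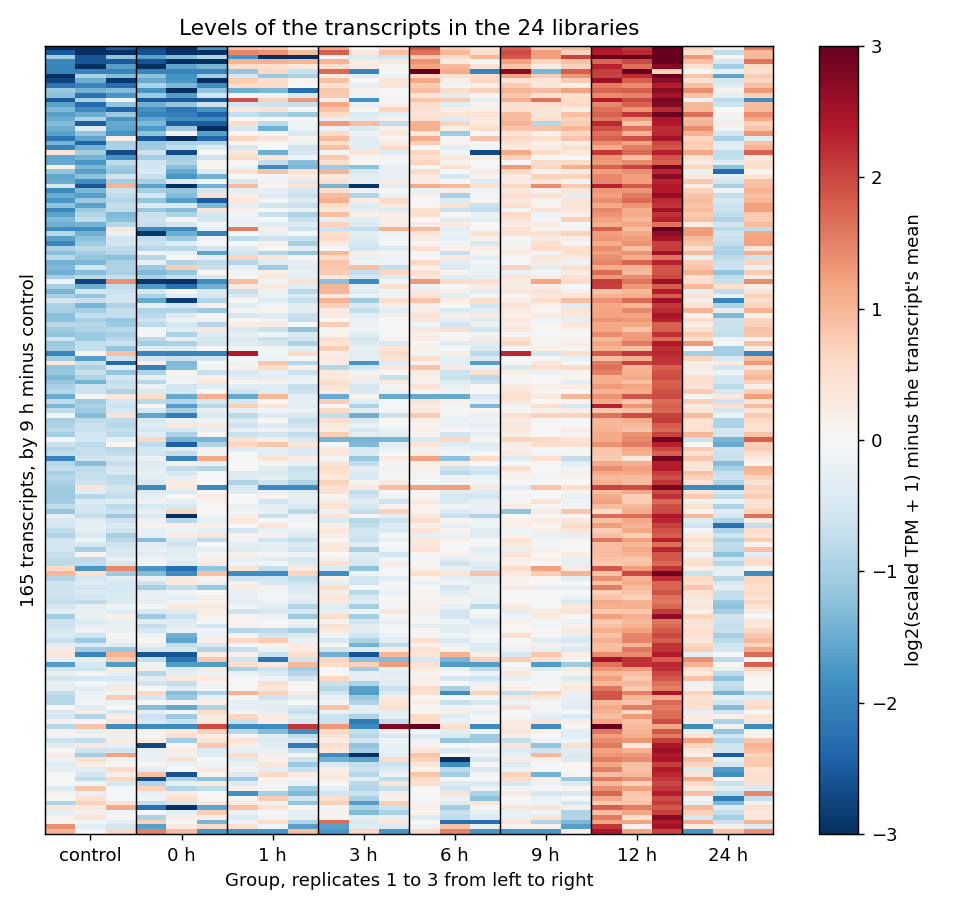
Heat map of log2(scaled TPM + 1) minus the transcript's mean over all libraries (red above it, blue below it, colours limited at both ends) for the 165 transcripts (rows, ordered by 9 h minus control, highest on top) in the 24 libraries (columns, by group). The 3 columns of 12 h are red in nearly every row, replicate 3 most of all, and 24 h replicate 2 is the bluest column of its group.

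In both contrasts with the control the largest rises belonged to BV898_07127.t01 and BV898_15352.t01. BV898_07127.t01 held 5.84, a value listed at 0 and 9.60 scaled TPM in the control, 8.06, 2.31 and 16 at 0 h, and 109.8, 104 and 63.9 at 1 h. It then held 205, 98.4 and 116 after 9 h, 324, 259 and 571 after 12 h and 96.5, 64.8 and 174 after 24 h. Every library from 1 h on lay above every control and 0 h library. Its log2 fold change from the control was 5.00 at 9 h and 4.64 at 24 h (limma, SE 0.70 for both, adjusted p = 4.73e-05 and 2.76e-05).

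BV898_15352.t01 followed the same course, with 14.9, 5.33 and 9.42 scaled TPM in the control, 13.8, 2.60 and 1.01 at 0 h and then 251, 231 and 175 after 1 h. It held 355, 217 and 146 after 9 h, 473, 433 and 746 after 12 h and 128, 53.5 and 175 after 24 h. On the log2 scale its difference between 0 h and 1 h was larger than that between 9 h and 12 h, and the 24 h libraries lay below the 1 h libraries or level with the lowest of them. Its log2 fold change from the control was 4.47 at 9 h and 3.40 at 24 h (limma, SE 0.58 for both, adjusted p = 1.87e-05 and 8.91e-05).

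A minority of the 165 had a first step at 1 h. The mean at 1 h was at least 1 above the mean at 0 h on the log2 scale for 35 of them (21.2%), against 14.3% of kept transcripts, and at least 1 below it for 4 (2.42%), against 8.29%. The rule limited the 0 h mean from above in the 165 and not in the kept transcripts. These shares are thus partly set by the rule and only describe the 165. Of the 35, 31 had a 9 h mean within 1 of their 1 h mean. A gain of at least 1 between 1 h and 9 h was seen for 17 (10.3%), against 3.44% of kept transcripts. Means rose at each step from 0 h to 12 h for 12 (7.27%), against 1.17%, and the rule itself fixes the last of these steps. For 51 of the 165 (30.9%) all 7 other group means lay within 1 of each other. The same share over kept transcripts was not computed, and the rule itself set 12 h at least 1 above them. This count therefore only describes the 165.

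The 24 h levels of the 165 were centred on their 9 h levels. The median log2 fold change of 24 h from 9 h was -0.01 over the 165, with quartiles of -0.28 and 0.24, and 0.03 over all transcripts. In limma 1 of the 165 was higher at 24 h (against 12.6% of all transcripts) and 5 were lower (against 9.89%), while 159 were not called, which does not show that they were equal. The result rests in part on 24 h replicate 2: without it 10 were higher and 3 lower. With quality weights per library 30 were higher and 6 lower, which turns the balance of the calls among the 165. How the calls over all transcripts moved in these fits was not computed. Among the 7 groups other than 12 h, the highest mean was at 24 h for 64 of the 165 (38.8%; 30.6% of kept transcripts). It was at 9 h for 49 (29.7%; 6.48%) and in the control for 6 (3.64%; 21.3%). Only 22.7% of kept transcripts were highest at 12 h, so for most of them this group was their highest of all. The shares are therefore not of like ranks. No pool was taken between 12 h and 24 h.

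The transcript called higher at 24 h than at 9 h was BV898_19597.t01, a rare one. It held 2.07, a value listed at 0 and 0.537 scaled TPM at 9 h, 8.75, 13.3 and 14.3 at 12 h and then 5.62, 2.17 and 9.95 after 24 h (log2 fold change of 24 h from 9 h 1.87, SE 0.58, limma adjusted p = 0.0256). At 1 h and 3 h it lay between 2.84 and 6.60, and at 6 h it was listed at 0 in 2 libraries and at 3.35 in the other. This call was lost in 6 of the alternative fits, with an adjusted p of up to 0.142.

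The largest falls from 9 h to 24 h were those of BV898_17738.t01 and BV898_07094.t01. BV898_17738.t01 held 18.0, 1.73 and 4.54 scaled TPM at 9 h and 13.3, 16.6 and 17.9 at 12 h. Its 1 h replicate 1 held 19.5, above every 12 h library, and 9 h replicate 1 was level with the highest of them. At 24 h it held 0.974, 0.963 and a value listed at 0, and limma called it lower than at 9 h (log2 fold change -2.07, SE 0.69, adjusted p = 0.0351). That call was lost in 5 of the alternative fits: without 9 h replicate 1 or 3, without 24 h replicate 1 or 3, and with these groups alone, with an adjusted p of up to 0.218. BV898_07094.t01 held 11, 16.7 and 7.43 scaled TPM at 9 h, 28.8, 21.4 and 39.4 at 12 h and then 4.01, 2.26 and 0.604 after 24 h, with no overlap between 9 h and 24 h (-2.03, SE 0.58, adjusted p = 0.0152). Its call was lost in 3 of the fits: with a pseudocount of 0.1, without 9 h replicate 2 and without 24 h replicate 3, with an adjusted p of up to 0.0991. Both were listed at 0 in all 3 libraries at 0 h. The remaining calls, named because they are few, were BV898_02686.t01 (-1.46, adjusted p = 0.00318), BV898_03252.t01 (-0.75, adjusted p = 0.0413) and BV898_01963.t01 (-0.77, adjusted p = 0.046).

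Few differences were called between 3 h and 9 h. In limma 1 of the 165 was higher at 9 h than at 3 h, against 0.473% of all transcripts, and 0 were lower, against 0.655%. At an unadjusted p under 0.05 it was 20 higher and 1 lower, against 989 and 1064 of all 16490 transcripts. The other fits gave 0 to 7 higher and 0 or 1 lower. The median log2 fold change was 0.22 over the 165 and 0.01 over all transcripts. A positive value was found for 126 of the 165 (76.4%), against 50.7% of all transcripts. The 3 h mean holds the high 3 h replicate 1 described above.

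BV898_15870.t01, the transcript called higher at 9 h than at 3 h, had successive groups from 1 h to 12 h that did not overlap. It held 14.7, 4.51 and 13.0 scaled TPM in the control and 9.66, 12.3 and 16.7 at 0 h, which overlapped. The 1 h libraries lay below those of 0 h, at 8.59, 2.27 and 0.499. It then held 29.7, 23.3 and 21.1 at 3 h and 56.1, 47.9 and 64.6 after 6 h. It went on to 116, 75.9 and 133 at 9 h and then 254, 271 and 332 after 12 h, and held 79.4, 33.5 and 63.5 at 24 h. From 1 h to 12 h all libraries of a group lay above all those of the group before. The difference between 3 h and 9 h was 2.06 on the log2 scale (SE 0.48, limma adjusted p = 0.0401), and the call was lost in 8 of the alternative fits, with an adjusted p of up to 0.177.

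**Figure D5:**
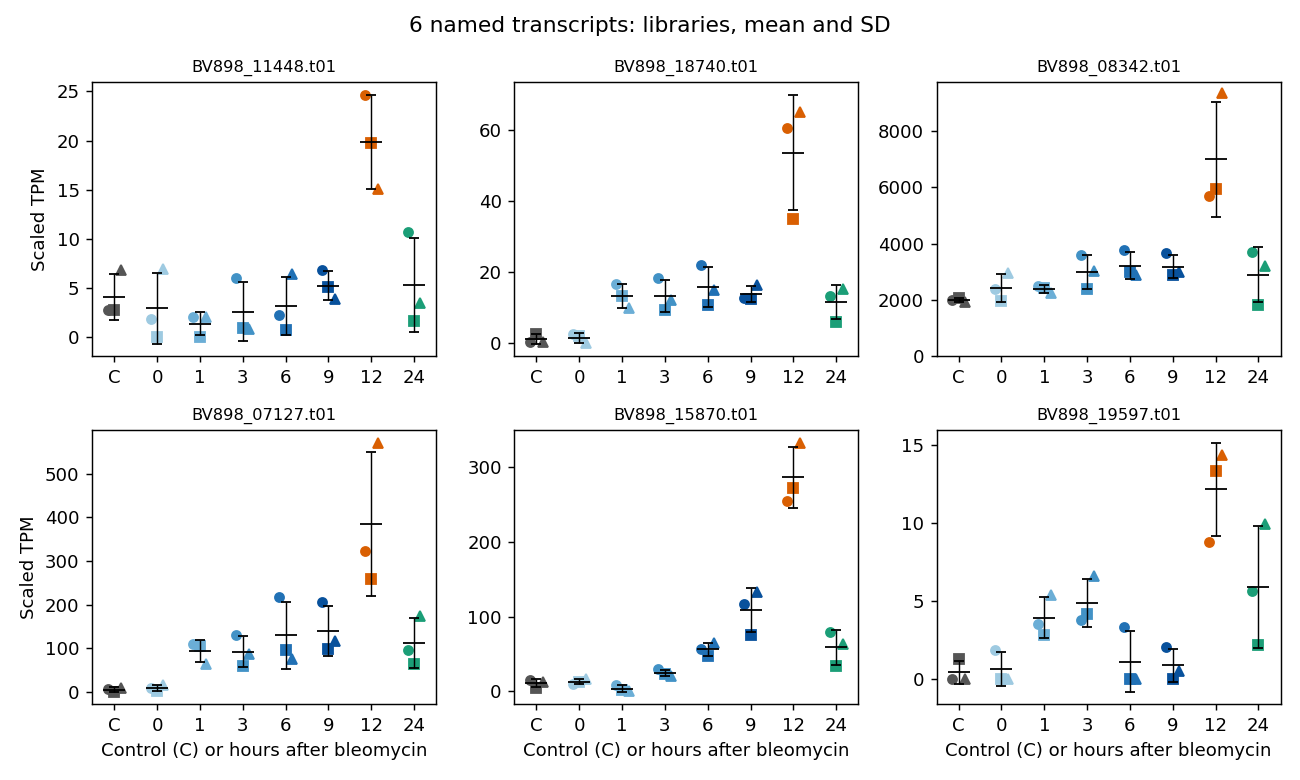
Scaled TPM of 6 of the named transcripts by group, with each library as a point and the group mean ± SD (n = 3), 1 panel per transcript. BV898_11448.t01 and BV898_18740.t01 have the largest margins, BV898_08342.t01 is the most abundant, BV898_07127.t01 steps up at 1 h, BV898_15870.t01 is higher in each group than in the one before from 1 h to 12 h, and BV898_19597.t01 is rare with values listed at 0.

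Outside 12 h, 160 of the 165 also reached 5 TPM in at least 3 libraries, and 5 passed the filter only with the 12 h libraries counted. For 33 of the 165 at least 1 library was listed at 0, and this was the case in 0 of the 12 h libraries. The 0 h mean was below the control mean for 59 of the 165, and the median difference of 0 h from the control was 0.22 on the log2 scale, with a range of -3.13 to 0.95, where the upper end is set by the rule.

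Loci with several transcripts were not frequent among them: 9 of the 165 (5.45%) came from such loci, against 8.25% of kept transcripts, and 8 of the 9 had another kept transcript. The estimate splits reads between such transcripts, so their single values are uncertain. Of their 6 partner transcripts that were not members, 2 had their highest mean at 12 h, as did 22.7% of all kept transcripts, and 3 were higher at 12 h than at 9 h. BV898_13627 was the locus with both of its transcripts in the set. BV898_13627.t01 held 45.9, 68.8 and 75.8 scaled TPM at 9 h and 96.0, 97.8 and 239.6 at 12 h, and BV898_13627.t02 held 18.0, 28.2 and 13.3 at 9 h and then 102, 50.8 and 69.6 after 12 h. The first was highest in 12 h replicate 3 and the second in 12 h replicate 1.

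At some other loci the transcripts of a pair differed in direction. BV898_02732.t02 had a 12 h mean of 61.9 scaled TPM, while BV898_02732.t01 had a mean of 6.21 at 9 h and had a 12 h mean that differed from it by -1.45 on the log2 scale. BV898_11287.t02 had a 12 h mean of 12.1, while BV898_11287.t01 had a mean of 9.91 at 9 h and 4.01 at 12 h. Whether such pairs differ in the animals or in how shared reads were divided was not tested.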

How the data were processed

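RNA was sequenced from 24 pools of whole animals in 8 groups, and the labels gave each pool its group and number but no batch or date. The authors deposited 1 table of TPM per transcript. Per the submitters' processing notes, the tools were RSEM 1.2.26, Bowtie2 2.2.9, DESeq2 1.22.2 and FastQC 0.11.3, with no role stated. The annotation and genome build were not given in the sources used here. All columns were matched to samples by the labels, leaving 0 columns of no sample, and 0 pairs of libraries held identical values. An exact 0 can be a failed estimate, so such values are described as listed at 0. Depth is unknown, and no counting error can be given.

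TPM were divided by each library's median ratio to the geometric mean over the 12190 transcripts that all 24 libraries list above 0. The rule was applied to log2(scaled TPM + 1), with a pseudocount of 1, which understates fold changes of rare transcripts. Contrasts with 12 h, and 0 h against control, were used by the rule and are given without a test. Of the other contrasts, 4 were tested on the 16490 transcripts that reached 1 TPM in 3 or more libraries, in a linear model with a mean per group, with limma 3.58.1 in R 4.3.3 (trended, robust eBayes; two-sided; Benjamini-Hochberg adjustment over all transcripts tested, threshold 0.05). P-values measure the spread between pools. With 3 pools against 3, the smallest p of an exact permutation test is 0.1. The procedure was tested on simulated data in which all transcripts had the same spread. For 24 h against control it recovered 25% of true changes of 1 and 98% of those of 2 on the log2 scale. It made 4 false calls among 16490 transcripts. Changes near 1 were thus mostly missed there. Alternatives were unscaled TPM, quantile normalization, another pseudocount, quality weights per library, other filters, the replicate number as a term, TPM per locus, the compared groups alone, and each library left out.

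Transcripts named are 2 per class: the largest margins, scaled, unscaled and among those not chosen in unscaled TPM, the highest levels at 12 h, both sides of the limit, the largest rises and falls in each tested contrast, and loci with another kept transcript. The members, lists and tests were chosen with earlier results of these data known. Lists of genes by function had been prepared, and 0 of them could be matched without gene names. Python 3.11.15 with matplotlib 3.10.9 drew the figures.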

Additional observations from a re-analysis of the deposited data

How the results depend on the processing

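The rule chose 24 transcripts in unscaled TPM, 88 after quantile normalization (83 of the 165), 8 with a margin of 1.5 and 76 with group medians in place of means (54 of the 165). It chose 53 to 342 with each library left out in turn, and 27 without 12 h replicate 3 and 24 h replicate 2, which was added after seeing the data. Of the transcripts chosen without the left-out libraries, the mean share highest at 12 h in those libraries was 85.6%, and 71.2% without the filter on low values. For 24 h against control, 126 were higher with quality weights per library. Lower calls numbered 3 in unscaled TPM, 1 after quantile normalization, 1 with 5 TPM required in 10 libraries and 2 with weights. For 9 h against control, weights gave 115 higher and 1 lower. For 24 h against 9 h, higher calls numbered 0 with a pseudocount of 0.1, 0 with the stricter filter, 2 per locus, 30 with weights (beside 6 lower) and 0 with these groups alone, and lower calls numbered 10 after quantile normalization and 3 with these groups alone. For 9 h against 3 h, higher calls numbered 0 with a pseudocount of 0.1, 7 with weights and 2 with these groups alone, and 1 was lower with weights. With a library left out, higher and lower calls ran from 50 to 106 and 0 to 2 for 24 h against control, from 42 to 80 and 0 to 0 for 9 h against control, from 0 to 10 and 2 to 5 for 24 h against 9 h, and from 0 to 2 and 0 to 0 for 9 h against 3 h. The cause of these changes was not tested, and no share over all transcripts was computed for these alternative fits. By the limit used, replicate numbers did not pair the pools of any tested contrast: deviations of same-numbered libraries correlated at -0.35 to 0.48 over 84 pairs, with a median of 0.0033, and 23 were over 0.1. In 1 of 28 pairs of groups, 3 h and 24 h, all 3 numbers were over 0.1. With the replicate block, 74 were higher and 1 lower at 24 h than control, 72 and 0 at 9 h than control, 1 and 4 at 24 h than 9 h, and 4 and 0 at 9 h than 3 h. No named transcript reversed (0), and 22 of 254 alternative values lost their call.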
